A study of Mus musculus with 8 samples.

Results

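The D cyclins, the CIP/KIP inhibitors of cyclin-dependent kinases, Myc and a small group of p53 target genes were followed in endothelial cells (ECs) of mouse breast tumours. The genes were Ccnd1, Ccnd2 and Ccnd3 (D cyclins), Cdkn1a, Cdkn1b and Cdkn1c (encoding p21, p27 and p57), Myc, and Ccng1, Mdm2 and Btg2, which p53 can activate, as it does Cdkn1a. They were chosen by name, 10 of the 20408 genes measured, and read in the 7159 of 8204 deposited cells that held at least 1 unique molecular identifier (UMI, the tag that counts 1 captured transcript) of Pecam1, which encodes the CD31 protein used in the sort. These cells were split by Mki67 and Top2a, genes expressed in cycling cells: 753 cells held a UMI of either gene and are called positive, and 6406 held none and are called negative.

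Transcripts of single CD31+ tumour ECs, sorted by FACS from adult mice, were counted with the 10x Genomics 3' v3 kit, which tags the 3' end of each transcript. Spontaneous tumours arose in MMTV-PyMT mice, whose transgene drives the polyoma middle T oncogene in mammary epithelium from the MMTV promoter, and implanted tumours grew in the mammary fat pad of recipient mice after injection of cells that had been dissociated from MMTV-PyMT tumours and cultured. The tumours of each model were injected with PBS or with cGAMP, a cyclic dinucleotide that activates the innate immune sensor STING, and harvested 3 h later, which gives 4 groups, named by model and treatment, of 2 libraries each, and ECs of 2 mice were collected per group. The strain is c57bl/6 on the labels of all libraries but FVB in the methods, for donors and recipients alike, and which was used was not settled. A comparison of models is therefore also one of tumours that had passed through culture with tumours that had not, and the ECs of implanted tumours are those of the recipient.

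D cyclins are made in response to growth signals, bind CDK4 and CDK6, and start the phosphorylation of Rb that lets a cell leave G1. CIP/KIP inhibitors bind cyclin-CDK complexes and hold that step back, with Cdkn1a the best known target of p53 and also a gene induced by stress and cytokines without p53, whereas MYC raises D cyclin transcription and ribosome synthesis. MDM2 is the ubiquitin ligase that removes p53, so that the loop limits itself, and resting endothelium is kept out of the cycle in part by these inhibitors.

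Total UMIs ran from 7863535 to 16506086 per library, and the median UMIs per deposited cell from 8803.5 to 13148 in 7 libraries, with 2014 in the remaining one, replicate 1 of implanted cGAMP. A Pecam1 UMI was held by 75.5% of the deposited cells of that library and by 88.7% to 92.8% of those of the others. Up to 3 cell barcodes were shared by a pair of libraries. Summed levels of 10 endothelial markers were high in every library, between 7089 and 8397 CPM (UMIs of a gene per 1000000 UMIs of the cell, averaged over the cells of a library). All genes of the other marker lists gave some signal among the Pecam1+ cells, although Ms4a1, which defines B cells, was at 0 in 7 of the 8 libraries. After cGAMP in spontaneous tumours 7 mural markers summed to 581 to 736 CPM against 85.6 to 448 CPM after PBS, 5 fibroblast markers to 73.8 to 74.9 CPM against 7.83 to 34.8 CPM, 7 myeloid markers to 22.8 to 32.5 CPM against 10.9 to 11.4 CPM, and 6 lymphoid markers to 4.47 to 7.60 CPM against 1.61 to 4.19 CPM. After cGAMP in implanted tumours 5 lymphatic endothelial markers summed to 1645 to 1670 CPM against 363 to 513 CPM, the myeloid markers to 39.0 to 166.5 CPM against 9.15 to 12.2 CPM, the lymphoid markers to 21.8 to 32.9 CPM against 3.01 to 4.89 CPM, the fibroblast markers to 48.8 to 72.6 CPM against 12.4 to 15.1 CPM, and the mural markers to 123 to 222 CPM against 76.6 to 106 CPM. Of the fibroblast markers in spontaneous tumours Col3a1 held most of the sum after cGAMP, at 61.3 and 70.6 CPM. Of the lymphatic endothelial markers in implanted tumours Ccl21a was at 325 and 204.5 CPM after PBS and 1245 and 1198 CPM after cGAMP. Lyve1, Pdpn and Flt4 were also higher in both cGAMP libraries. Prox1 was at 54.7 and 45.5 CPM after PBS and 39.2 and 55.9 CPM after cGAMP. The 7 epithelial tumour markers summed to 158 and 1093 CPM in the libraries of implanted cGAMP and to 272 to 702 CPM in the others.

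Positive cells were most frequent in implanted tumours after PBS. They made up 11.6% and 9.98% of the Pecam1+ cells of spontaneous tumours after PBS and 5.52% and 6.35% after cGAMP, and 18.1% and 18.5% of those of implanted tumours after PBS and 5.69% and 4.80% after cGAMP (replicates 1 and 2), or 29 to 203 positive cells per library. In each model both cGAMP libraries lay below both PBS libraries. The chance of holding a UMI grows with depth, and positive cells had medians of 16410 to 20988 UMIs per library against 2869 to 14298 UMIs in negative cells. With every cell thinned to 2000 UMIs and shallower cells left out, the shares were 4.52% and 4.09%, 0.557% and 1.61%, 7.47% and 8.60%, and 1.35% and 1.32%, in the same order. As deposited, the Wilson 95% confidence interval was 9.74% to 13.8% in replicate 1 of spontaneous PBS and 3.36% to 6.81% in replicate 2 of implanted cGAMP, and such intervals cover counting error only. The shares were not tested between groups. The smallest two-sided p of an exact permutation test of 2 libraries against 2 is 0.3333, and no model over all 8 libraries was fitted to the share. Of the 37 cells with a Ptprc UMI and none of Pecam1, 1 held a Mki67 UMI and 1 a Top2a UMI, too few to set a background.

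**Figure D1:**
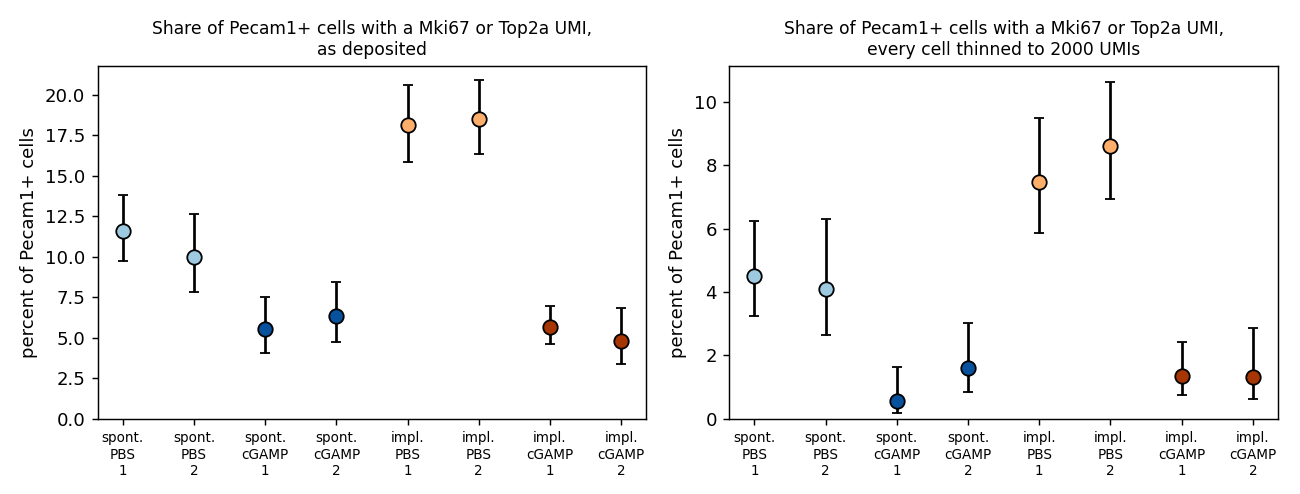
Share of Pecam1+ cells with a Mki67 or Top2a UMI (y axis, percent) in each of the 8 libraries (x axis), as deposited on the left and with every cell thinned to 2000 UMIs on the right, with Wilson 95% intervals as bars. The implanted PBS libraries are highest at 18.1% and 18.5% as deposited, and the cGAMP libraries lie below the PBS libraries of their model in both panels.

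All 10 genes are protein coding. In the GENCODE annotation of GRCm38 (mm10, the build of the deposited tables) Ccnd1 lies at chr7:144929931-144939925, minus strand, Ccnd2 at chr6:127125162-127152193, minus strand, and Ccnd3 at chr17:47505051-47599691, plus strand. Cdkn1a is at chr17:29090976-29100727, plus strand, Cdkn1b at chr6:134920401-134925513, plus strand, Cdkn1c at chr7:143458339-143461050, minus strand, and Myc at chr15:61985391-61990374, plus strand. Ccng1 is at chr11:40748552-40755311, minus strand, Mdm2 at chr10:117688875-117710758, minus strand, and Btg2 at chr1:134075170-134079120, minus strand.

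RefSeq promoter windows (GRCm38.p6) were held for 6 of the 10 genes, in 8 windows, since Cdkn1a and Ccnd3 have 2 starts each. In the 250 bases before the start, searched on both strands, the p53 half-site consensus matched in 3 of the 8 member windows, those of Cdkn1a, Ccng1 and Mdm2, and in 7.13% of all 32851 windows. The cAMP response element TGACGTCA matched only the window of Btg2 among these and 1.55% of all. The GC box GGGCGG matched 6 of the 8 windows and 32.7% of all, where the only overlap of matches was between a pair of GC boxes of Btg2. None of the 8 held the E-box CACGTG (6.02% of all), the STAT motif TTCNNNGAA (7.02%) or the interferon-stimulated response element (2.98%). A match is a description of the letters and not a site of binding. The stretches below are shown because they hold the p53 half-site matches of the p53 targets and the element of Btg2, each from 230 to 31 bases before the start on the strand of the gene, with the matches in capitals. They are Cdkn1a at its upstream start (chr17:29090749-29090948, plus strand), Ccng1 (chr11:40755317-40755516, minus strand), Mdm2 (chr10:117710789-117710988, minus strand) and Btg2 (chr1:134079186-134079385, minus strand).
Cdkn1a: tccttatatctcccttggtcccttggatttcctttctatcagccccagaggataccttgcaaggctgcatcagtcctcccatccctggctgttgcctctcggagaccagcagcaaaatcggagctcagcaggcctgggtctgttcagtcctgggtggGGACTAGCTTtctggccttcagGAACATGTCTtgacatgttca
Ccng1: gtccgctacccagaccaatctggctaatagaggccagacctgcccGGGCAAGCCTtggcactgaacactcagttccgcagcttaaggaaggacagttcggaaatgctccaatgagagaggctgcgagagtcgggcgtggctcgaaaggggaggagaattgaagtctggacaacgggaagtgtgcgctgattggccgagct
Mdm2: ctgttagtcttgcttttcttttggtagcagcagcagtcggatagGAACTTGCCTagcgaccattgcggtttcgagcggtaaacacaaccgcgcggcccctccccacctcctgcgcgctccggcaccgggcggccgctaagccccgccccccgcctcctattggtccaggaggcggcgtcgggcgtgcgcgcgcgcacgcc
Btg2: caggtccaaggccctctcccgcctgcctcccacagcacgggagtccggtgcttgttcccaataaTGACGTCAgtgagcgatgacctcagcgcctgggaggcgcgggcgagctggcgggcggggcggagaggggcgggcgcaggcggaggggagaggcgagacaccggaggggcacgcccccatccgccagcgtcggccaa

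Among Pecam1+ cells Ccnd1 was lower at 3 h after cGAMP in spontaneous tumours and Cdkn1a was higher in implanted tumours, and no other member passed the test in either model. Each library gave 1 level per gene, the mean CPM over its cells. The log2(mean CPM + 1) was compared between groups with limma over all 8 libraries, and a gene was called at a Benjamini-Hochberg adjusted p below 0.05 over the 10424 genes that reached 5 CPM in 2 or more libraries. All 10 members were among the genes tested. In spontaneous tumours 1 of 10 members was called, lower, beside 12.7% of all genes tested (7.59% lower), and in implanted tumours 1 of 10, higher, beside 25% of all genes (8.6% higher). Between models 0 of 10 were called after PBS (7.83% of all genes) and 2 of 10 after cGAMP (13.8%), Ccnd1 higher (5.23%) and Cdkn1c lower (8.53%) in implanted tumours. In negative cells alone, with 10348 genes tested, Ccnd1 was again called in spontaneous tumours and between models after cGAMP, while 0 of 10 members were called between models after PBS (6.79% of all genes, 1 member at an unadjusted p below 0.05 and 0 by limma-voom) and 0 of 10 for the difference of the responses (0.715%, 1 member and 0). The difference between the 2 responses, tested as an interaction, was called for 0 of 10 members (0.662% of all genes). There 1 member, Ccnd1, had an unadjusted p below 0.05, beside 1400 of the 10424 genes, and 0 were called by limma-voom on summed UMIs. In negative cells 2361 of the 10348 genes had an unadjusted p below 0.05 between models after PBS, and 1333 for the difference of the responses. A p value here measures only the spread between libraries, and each comparison of treatments shares its control libraries with the comparison of models.

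The median log2 difference of the members was -0.06 in spontaneous and 0.08 in implanted tumours, beside -0.10 and -0.10 over all genes tested. Median-of-ratios scaling moved the median of all genes to about 0.00 in spontaneous tumours, and the share of calls that were higher went from 40.2% to 56.6% there, from 34.3% to 50.6% in implanted tumours, from 43.3% to 67.1% between models after PBS and from 38.0% to 58.3% after cGAMP. The direction of each member called above was the same under this scaling. Results below were also fitted under alternatives (other scalings, pseudocounts, filters, tests and cell sets, and each library left out), named where they changed a call.

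**Figure D2:**
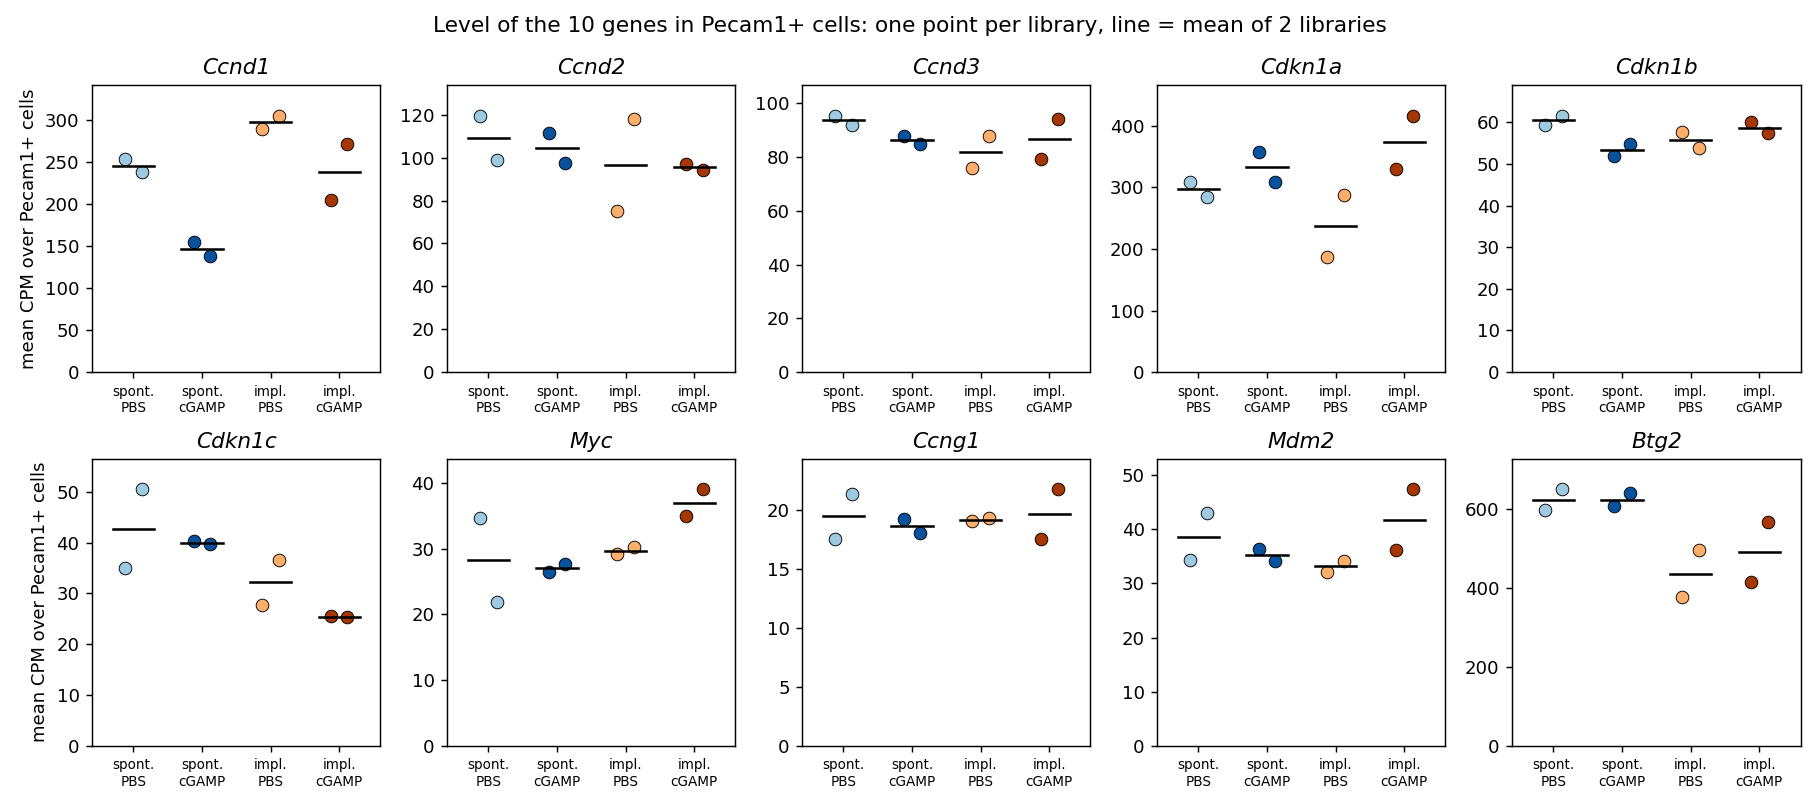
Mean CPM over Pecam1+ cells (y axis, starting at 0) of each of the 10 genes in the 4 groups (x axis), with 1 point per library and a line at the mean of 2 libraries. Ccnd1 lies at 137.6 to 154.6 CPM in spontaneous cGAMP and at 237 to 253 CPM in spontaneous PBS, and Cdkn1a at 330 to 417 CPM in implanted cGAMP and 186 to 287 CPM in implanted PBS.

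**Figure D3:**
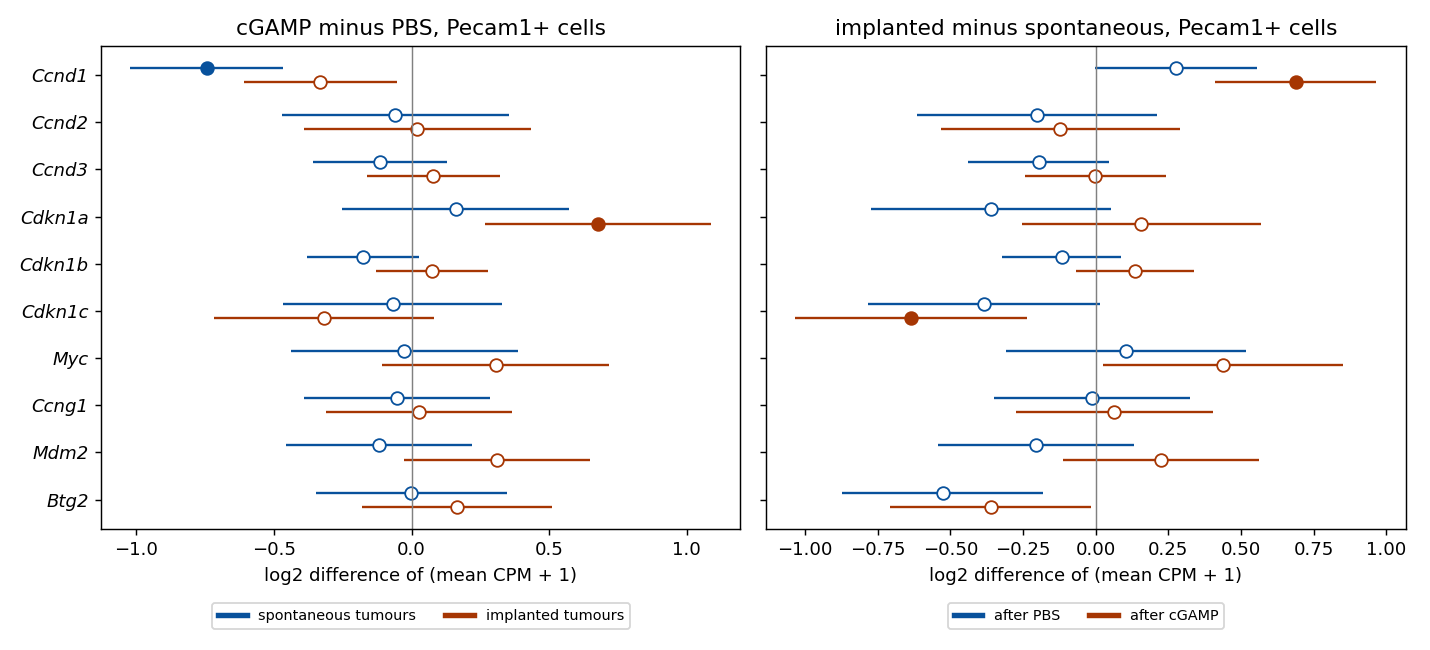
Differences of log2(mean CPM + 1) (x axis) for the 10 genes (y axis), cGAMP minus PBS in each model on the left and implanted minus spontaneous after each treatment on the right, with 95% confidence intervals of the limma fit as bars and filled points for adjusted p below 0.05. The filled points are Ccnd1 in spontaneous tumours, Cdkn1a in implanted tumours, and Ccnd1 and Cdkn1c between models after cGAMP.

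Ccnd1 encodes cyclin D1, the D cyclin most often tied to growth factor signalling in ECs. Its level was 253 and 237 CPM in the libraries of spontaneous PBS and 155 and 138 CPM in spontaneous cGAMP, a group mean of 245 ± 11 against 146 ± 12 CPM (SD, n = 2). Both cGAMP libraries lay far below both PBS libraries. Ccnd1 fell by 0.74 on the log2 scale (SE 0.12, 95% interval -1.02 to -0.47, limma adjusted p = 0.00474). In negative cells the levels were 246 and 221 against 147 and 129 CPM, and the fall was of like size (-0.76 ± 0.13, limma adjusted p = 0.00634), beside 10.3% of all genes called there (5.57% lower). Of the change of -99.4 CPM, -6.00 CPM went with the smaller share of positive cells and -87.6 CPM with the level within negative cells. Cycling cells without a captured Mki67 or Top2a UMI count as negative. In negative cells 11 other cell cycle genes had a median log2 difference of -0.33, with 0 called, beside -0.09 over all genes. Their bearing on these parts was not tested. The call was lost without replicate 2 of spontaneous cGAMP (-0.66, adjusted p = 0.0529) and without cells holding a UMI of Epcam, Krt18, Pdgfrb, Rgs5, Ptprc or Lyz2 (-0.60, adjusted p = 0.0995). The summed mural, fibroblast, myeloid and lymphoid markers were higher beside it, as given above.

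In implanted tumours Ccnd1 was at 289 and 305 CPM after PBS and 205 and 272 CPM after cGAMP. The groups did not overlap, but the replicates of cGAMP lay far apart and the difference did not pass (-0.33 ± 0.12, limma adjusted p = 0.0786). It passed with UMIs summed per library (-0.43, adjusted p = 0.0109), with median-of-ratios scaling (-0.33, adjusted p = 0.0360), with limma-voom (-0.43, adjusted p = 0.0106), with cells thinned to 2000 UMIs (-0.48, adjusted p = 0.0106) and without replicate 2 of implanted cGAMP (-0.54, adjusted p = 0.00513). Without replicate 1 of that group it was -0.13, adjusted p = 0.392. The responses of the 2 models differed by 0.41 ± 0.18 (95% interval 0.02 to 0.81, limma adjusted p = 0.355), which did not pass.

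After cGAMP Ccnd1 was higher in implanted than in spontaneous tumours (0.69 ± 0.12, limma adjusted p = 0.00897), and in negative cells too (0.76 ± 0.13, adjusted p = 0.00795, beside 12.6% of all genes called, 4.86% higher). Its levels there did not overlap, 205 and 272 CPM against 155 and 138 CPM. In the same comparison the mural markers summed to 123 to 222 CPM in implanted and 581 to 736 CPM in spontaneous tumours. The lymphatic endothelial markers summed to 1645 to 1670 CPM and 501 to 769 CPM. Myeloid and lymphoid markers were also higher in implanted tumours, and fibroblast markers lower. Their part in this call was not tested. The call was lost without replicate 2 of spontaneous cGAMP (0.60, adjusted p = 0.0943) and without cells holding a UMI of another lineage (0.54, adjusted p = 0.132), and with summed UMIs the difference was 0.40, adjusted p = 0.0265. After PBS the models differed by 0.28 ± 0.12 (adjusted p = 0.209), which did not pass. At 2000 UMIs per cell, 30.8% and 30.3% of Pecam1+ cells of spontaneous PBS held a Ccnd1 UMI, 21.1% and 20.2% of spontaneous cGAMP. In implanted tumours these shares were 35.6% and 36.3% after PBS, and 27.6% and 26.7% after cGAMP. No cell type that should lack Ccnd1 was measured, so the background of free RNA in these shares is unknown.

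Ccnd2 and Ccnd3, the other D cyclins, did not pass in any of these comparisons. Ccnd2 ranged from 75.2 to 119.6 CPM over the 8 libraries, and the libraries of implanted PBS, at 75.2 and 118 CPM, spanned nearly all of that range. Its difference after cGAMP was -0.06 ± 0.18 in spontaneous tumours (95% interval -0.47 to 0.35, adjusted p = 0.865) and, in implanted tumours, 0.02 ± 0.18 with an adjusted p of 0.948. Ccnd3 ranged from 75.8 to 95.4 CPM and differed by -0.11 ± 0.11 and 0.08 ± 0.11 (adjusted p = 0.524 and 0.636). In implanted tumours Ccnd3 passed under 1 alternative, median-of-ratios scaling (0.29, adjusted p = 0.0385).

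Cdkn1a encodes p21, which binds cyclin-CDK complexes and PCNA. In implanted tumours it was at 186 and 287 CPM after PBS and 329.8 and 417 CPM after cGAMP, with means of 237 ± 71.5 and 373 ± 61.4 CPM (SD, n = 2). The groups did not overlap, although replicate 2 of PBS and replicate 1 of cGAMP were close. Cdkn1a rose by 0.68 on the log2 scale (SE 0.18, 95% interval 0.27 to 1.09, limma adjusted p = 0.0243). Of the change of 136.5 CPM, 12.2 CPM went with the smaller share of positive cells and 108.6 CPM with the level within negative cells. Cycling cells without a captured UMI count as negative here too. In negative cells 11 other cell cycle genes had a median of -0.46, with 2 called, both lower, beside -0.09 over all genes. Their bearing on these parts was not tested. The negative cells alone held 193 and 317 CPM of Cdkn1a after PBS and 338 and 418 CPM after cGAMP, a difference of 0.60 ± 0.20 that missed the threshold (limma adjusted p = 0.0540). There 0 of 10 members were called with limma, beside 21.8% of all genes. An unadjusted p below 0.05 was reached by 1 member, beside 3561 of the 10348 genes tested. By limma-voom 2 members, Cdkn1a and Mdm2, were called, beside 3447 of all genes.

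The Cdkn1a call in implanted tumours was lost under 4 of 19 alternatives. It was lost without replicate 1 of implanted PBS (0.37, adjusted p = 0.140) or replicate 2 of implanted cGAMP (0.51, adjusted p = 0.110), and, at the same difference of 0.68, with no filter on low values (adjusted p = 0.0890) and with only the 4 libraries of the model (adjusted p = 0.0827). It held without replicate 1 of implanted cGAMP, the shallow library (0.85, adjusted p = 0.0164), at 2000 UMIs per cell (0.56, adjusted p = 0.0280) and without cells holding a UMI of another lineage (0.62, adjusted p = 0.0416). The sum of lymphatic endothelial markers, which these 6 genes do not remove, was higher beside it in both cGAMP libraries, mostly from Ccl21a and not from Prox1. Their part in the result was not tested. The share of Pecam1+ cells with a Cdkn1a UMI at 2000 UMIs was 25.2% and 30.9% after PBS and 40.5% and 44.6% after cGAMP, again with no cell type to give a background.

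In spontaneous tumours Cdkn1a was at 309 and 285 CPM after PBS and 358 and 309 CPM after cGAMP. The groups overlapped and the difference did not pass (0.16 ± 0.18, 95% interval -0.25 to 0.57, limma adjusted p = 0.604). Summing UMIs per library gave 0.43, adjusted p = 0.0368, median-of-ratios scaling 0.54, adjusted p = 0.0196 and limma-voom 0.43, adjusted p = 0.0420, all of them past the threshold. Summed UMIs weight deep cells more than the mean over cells does. The response did not differ detectably between models (0.52 ± 0.26, 95% interval -0.07 to 1.10, adjusted p = 0.433).

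Cdkn1b, which encodes p27 and is held high in resting cells, ranged only from 51.9 to 61.6 CPM. It differed by -0.18 ± 0.09 after cGAMP in spontaneous tumours (95% interval -0.38 to 0.03, adjusted p = 0.226) and, in implanted tumours, by 0.08 ± 0.09 with an adjusted p of 0.588. Neither passed. Cdkn1c encodes p57 and lies in an imprinted cluster. It was at 34.9 and 50.5 CPM after PBS and 40.4 and 39.7 CPM after cGAMP in spontaneous tumours, and at 27.8 and 36.7 CPM and 25.5 and 25.3 CPM in implanted tumours. The 2 lowest libraries were those of implanted cGAMP. Between models after cGAMP Cdkn1c was lower in implanted tumours (-0.63 ± 0.18, limma adjusted p = 0.0442), and in negative cells the difference was -0.63 ± 0.19 (adjusted p = 0.0623) and did not pass. The call was lost under 8 of 19 alternatives, among them leaving out any 1 of the 4 cGAMP libraries, with adjusted p up to 0.189 without replicate 2 of spontaneous cGAMP. Markers of mural, lymphatic endothelial and other cells differed between the same groups, as given above for Ccnd1. Their part in the Cdkn1c call was not tested. Neither response of Cdkn1c to cGAMP passed (-0.07 and -0.32 on the log2 scale, adjusted p = 0.836 and 0.225).

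Myc was at 34.7 and 21.8 CPM in spontaneous PBS and 26.4 and 27.7 CPM in spontaneous cGAMP, and at 29.2 and 30.2 CPM and 35.0 and 39.0 CPM in the implanted groups. The spontaneous groups overlapped and the implanted groups did not. It differed by -0.03 ± 0.18 and 0.31 ± 0.18 after cGAMP (limma adjusted p = 0.942 and 0.260), by 0.11 ± 0.18 between models after PBS (adjusted p = 0.774) and by 0.44 ± 0.18 between models given cGAMP (adjusted p = 0.143). None passed.

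Of 23 genes of the MYC network and MYC targets tested, 1 was called higher and 3 lower after cGAMP in spontaneous tumours, beside 12.7% of all genes, against 4 and 2 in implanted tumours, beside 25% of all genes, with medians of -0.29 and 0.05 beside -0.10 and -0.10 over all genes. Mxd1, a MAX partner that opposes MYC, rose in both (0.87 ± 0.16, adjusted p = 0.00729, and 1.49 ± 0.16, adjusted p = 0.000213), from 21.8 and 21.0 to 42.5 and 37.5 CPM in spontaneous and from 27.3 and 19.0 to 64.1 and 67.4 CPM in implanted tumours. Mxd4, of the same family, fell in both (-0.41 and -0.76, adjusted p = 0.0410 and 0.00118). Srm, the spermidine synthase, fell in spontaneous tumours (-0.72, adjusted p = 0.0103), and Max rose in implanted tumours (0.46, adjusted p = 0.0130). Between models 0 were higher and 1 lower after PBS, beside 7.83% of all genes called. After cGAMP 6 were higher and 1 lower, beside 13.8%, with Mxd4 at -0.79, Mxd1 at 0.71 and Srm at 0.62 on the log2 scale.

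The members act on kinases, Rb proteins and E2F factors. Of 16 other G1 and Rb pathway genes tested, 1 was called higher and 8 lower after cGAMP in implanted tumours, with a median of -0.49, against 0 and 1 in spontaneous tumours, with a median of -0.36. Of all genes 25% were called in implanted and 12.7% in spontaneous tumours, with a median of -0.10 in each. Cks1b, a CDK-binding subunit, fell by 1.72 and 1.49 in implanted and spontaneous tumours (adjusted p = 0.000842 and 0.00332). Of the D cyclin partners in implanted tumours, Cdk6 rose (0.76 ± 0.17, adjusted p = 0.0106) while Cdk4 fell (-0.53 ± 0.11, adjusted p = 0.00837). Among INK4 inhibitors, which block CDK4 and CDK6, Cdkn2c and Cdkn2d fell in implanted tumours (-0.86 and -0.91, adjusted p = 0.00833 and 0.00338), 2 of 3 tested beside 25% of all genes, and the median of the 3 was -0.18 in spontaneous tumours. The share of positive cells was lower beside these lists, as given above. In negative cells alone 13 G1 and Rb pathway genes were tested, of which 2 were called higher and 2 lower in implanted tumours against 0 and 1 in spontaneous tumours, and 1 of 3 INK4 inhibitors was lower in implanted tumours. Of all genes 21.8% were called there in implanted and 10.3% in spontaneous tumours. Between models after PBS, in all Pecam1+ cells, 1 of the 3 INK4 inhibitors was higher and 1 lower, beside 7.83% of all genes called.

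Ccng1, which encodes cyclin G1, a p53 target that recruits a phosphatase to MDM2, ranged from 17.5 to 21.7 CPM over all 8 libraries, with the 4 groups overlapping. Its differences were -0.05 ± 0.15 (95% interval -0.39 to 0.29) and 0.03 ± 0.15 (95% interval -0.31 to 0.36) after cGAMP, neither past the threshold (adjusted p = 0.855 and 0.923).

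Mdm2 was at 34.3 and 43.0 CPM after PBS and 36.4 and 34.2 CPM after cGAMP in spontaneous tumours, and at 32.2 and 34.2 CPM and 36.2 and 47.4 CPM in implanted tumours. The spontaneous groups overlapped, and the implanted groups did not, with replicate 2 of cGAMP well above the other 3 libraries. The difference there was 0.31 ± 0.15 (limma adjusted p = 0.164) and did not pass. It passed with summed UMIs (0.37, adjusted p = 0.0169), median-of-ratios scaling (0.46, adjusted p = 0.00639), limma-voom (0.37, adjusted p = 0.0119) and without replicate 1 of implanted cGAMP (0.50, adjusted p = 0.0403). In spontaneous tumours Mdm2 differed by -0.12 ± 0.15 (adjusted p = 0.645). Between models after cGAMP it differed by 0.22 ± 0.15 (limma adjusted p = 0.352), which did not pass, although limma-voom called it.

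Btg2, an antiproliferative gene induced by p53 and by growth signals, was at 599 and 650.4 CPM in spontaneous PBS and 378 and 496 CPM in implanted PBS, and at 608 and 641 and 415 and 568 CPM after cGAMP. Every implanted library lay below every spontaneous library. The difference after PBS was -0.53 ± 0.15 (95% interval -0.87 to -0.18, limma adjusted p = 0.0704) and -0.36 ± 0.15 once cGAMP was given (adjusted p = 0.149), and neither passed in the test over all 8 libraries. Between models after cGAMP limma-voom called 4 members, Ccnd1, Cdkn1c, Mdm2 and Btg2, and its count over all genes is not given here. In negative cells it called 3 members and 2046 of all genes there, against 1303 called with limma. After PBS, in all Pecam1+ cells, 0 of 10 members were called with limma. There 1 member reached an unadjusted p below 0.05 and 2, Cdkn1c and Btg2, were called by limma-voom. Of the 10424 genes tested after PBS 816 were called with limma, 2527 reached an unadjusted p below 0.05 and limma-voom called 1347. For Btg2 the difference passed under 8 of 19 alternatives, among them summed UMIs (-0.57, adjusted p = 0.0227), limma-voom (-0.57, adjusted p = 0.0244) and the 4 PBS libraries alone (adjusted p = 0.0343). Cdkn1c passed after PBS with summed UMIs (-0.54, adjusted p = 0.0442) and limma-voom (-0.54, adjusted p = 0.0463) and not in the test on mean CPM (-0.38 ± 0.18, adjusted p = 0.222). The response of Btg2 to cGAMP was 0.00 ± 0.15 in spontaneous tumours (95% interval -0.35 to 0.35) and 0.16 ± 0.15 in implanted tumours (95% interval -0.18 to 0.51), and neither passed. The 3 tested genes of the BTG and TOB family had medians of -0.01 and -0.07 after cGAMP in the 2 models, -0.01 between models after PBS and -0.03 after cGAMP.

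In spontaneous tumours cGAMP came with 0 higher and 3 lower calls among 25 other p53 targets, beside 12.7% of all genes, with a median of -0.07: the death receptor gene Fas (-0.91 ± 0.17, adjusted p = 0.00771), Rrm2b, a ribonucleotide reductase subunit (-0.60 ± 0.15, adjusted p = 0.0308), and Phlda3, an inhibitor of AKT (-0.40 ± 0.11, adjusted p = 0.0491). In implanted tumours 3 were higher and 5 lower, beside 25% of all genes, with a median of -0.18. Tnfrsf10b, a receptor for TRAIL, rose from 22.6 and 27.4 to 48.1 and 40.3 CPM (0.80 ± 0.13, adjusted p = 0.00212), and it was called under all 19 alternatives. Fas fell there too (-0.55 ± 0.17, adjusted p = 0.0396), as did the phosphatase gene Ptp4a3 (-0.53 ± 0.11, adjusted p = 0.00726). Between models 2 were higher and 2 lower after PBS, among them Gadd45b at 0.94, Tnfrsf10b at -0.58 and Phlda3 at 0.53. After cGAMP 2 were higher and 3 lower, among them Plk3 at 0.82, Ptp4a3 at -0.71 and Xpc at -0.62 on the log2 scale. Of all genes 7.83% were called between models after PBS and 13.8% after cGAMP.

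Immediate early genes are induced within minutes by growth factors and stress. After cGAMP 3 of 18 tested were higher and 0 lower in spontaneous tumours (12.7% of all genes called), with Atf3 at 0.59, Fosb at 0.56 and Socs3 at 0.32, against 9 and 0 in implanted tumours (25% of all genes), with Fosb at 0.77, Dusp1 at 0.60 and Atf3 at 0.59. In negative cells alone 0 of 18 were called in spontaneous tumours, beside 10.3% of all genes, and 2 of 18, both higher, in implanted tumours, beside 21.8%. After PBS 1 was higher and 3 lower in implanted than in spontaneous tumours, with Jund at -0.69, Jun at -0.66 and Zfp36 at -0.61. After cGAMP 2 were higher and 2 lower. These counts stand beside 7.83% of all genes called after PBS and 13.8% after cGAMP. In implanted tumours the levels of Dusp1, 369 and 539 CPM after PBS and 602 and 761 CPM after cGAMP, ran beside those of Cdkn1a. Their part in the Cdkn1a result was not tested.

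Cells with a Mki67 or Top2a UMI held more Ccnd1 and less Cdkn1a and Ccnd2 than cells of the same library without one. In a fit with the library as a block, 3 of 10 members were called, 1 higher and 2 lower in positive cells, beside 10.3% of the 11150 genes tested (5.96% higher and 4.35% lower). The split was checked on genes not used to make it: of 14 other cycle genes such as Birc5 and Cdk1, 14 were higher in positive cells, with a median of 2.95 on the log2 scale.

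**Figure D4:**
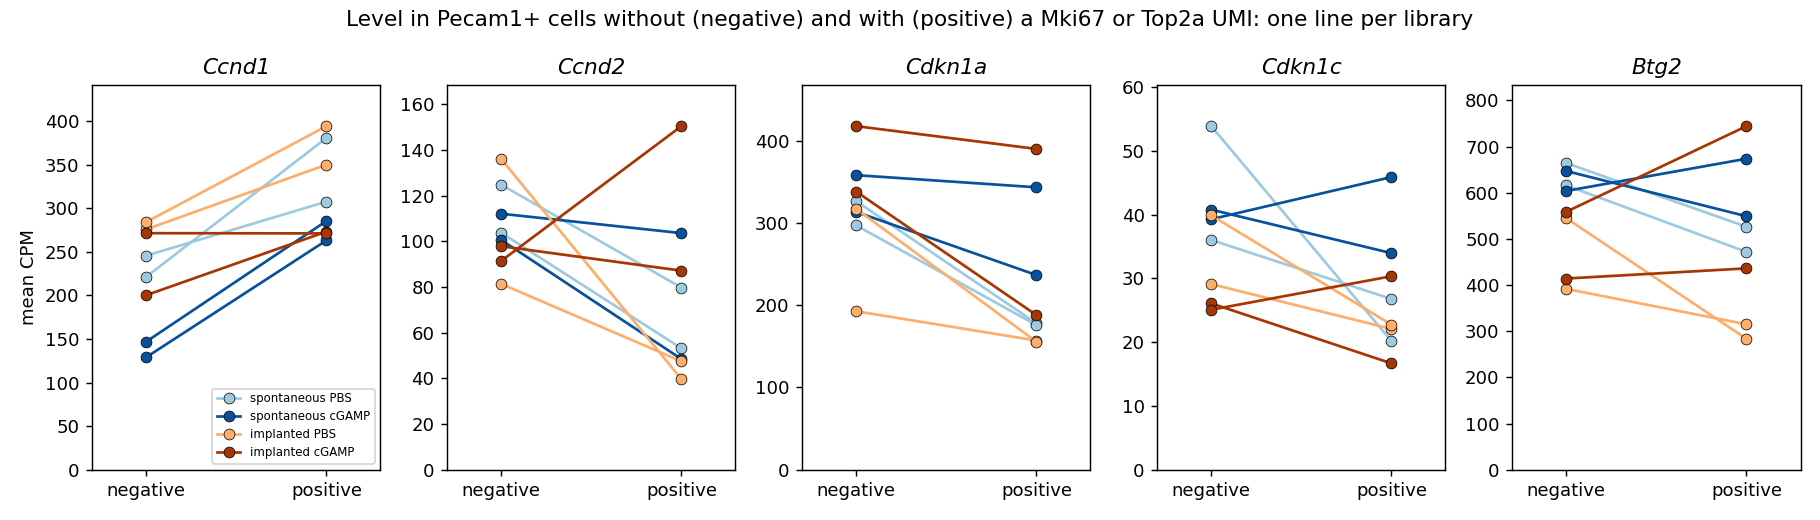
Mean CPM (y axis, starting at 0) in negative and positive Pecam1+ cells (x axis) for Ccnd1, Ccnd2, Cdkn1a, Cdkn1c and Btg2, with 1 line per library coloured by group. Ccnd1 is higher in the positive cells of 7 of 8 libraries and Cdkn1a is lower in the positive cells of all 8.

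Ccnd1 was at 263 to 394 CPM in positive cells and 129 to 284 CPM in negative cells over the 8 libraries, and was higher in the positive cells of 7 of them, with 271.3 against 271.6 CPM in replicate 2 of implanted cGAMP. The difference was 0.54 ± 0.07 (95% interval 0.40 to 0.69, limma adjusted p = 6.57e-05). Within the group of spontaneous PBS it was 0.55 (adjusted p = 0.0294) and within that of spontaneous cGAMP 0.99 (adjusted p = 0.00277). The same differences were 0.41 (adjusted p = 0.137) and 0.22 (adjusted p = 0.522) in implanted tumours. Only the spontaneous groups passed alone, where 4.16% and 0.735% of all genes were called, and 4.26% and 0.834% in the implanted groups.

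Cdkn1a was lower in the positive cells of all 8 libraries, at 178 and 176 CPM in spontaneous PBS against 327 and 297 CPM in negative cells, and at 157 and 156 against 193 and 317 CPM in implanted PBS. After cGAMP it was at 344 and 237 against 358 and 314 CPM in spontaneous and 188 and 390.3 against 338 and 418 CPM in implanted tumours. The gap was narrow in replicate 1 of spontaneous cGAMP and replicate 2 of implanted cGAMP. Over all groups the difference was -0.54 ± 0.09 (limma adjusted p = 0.000843), and of the single groups only spontaneous PBS passed (-0.81, adjusted p = 0.0148).

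Ccnd2 was lower in positive cells over all groups (-0.59 ± 0.13, limma adjusted p = 0.00806). The gap was widest in implanted PBS, 47.5 and 39.7 CPM in positive against 81.4 and 136 CPM in negative cells (-1.26, adjusted p = 0.00887), and replicate 2 of implanted cGAMP went the other way, 150.5 against 91.4 CPM from 29 positive cells. In that library the lymphatic endothelial markers summed to 4123 CPM in positive against 1546 CPM in negative cells. Over all groups Ccnd1 and Ccnd2, both D cyclins, thus differed in opposite directions between the same cells. Within implanted cGAMP both were higher in positive cells, by 0.22 and 0.27, and neither passed (limma adjusted p = 0.522 and 0.719).

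Btg2 and Cdkn1c were lower in the positive cells of 5 and 6 of 8 libraries without passing over all groups (-0.20 ± 0.07, adjusted p = 0.0953, and -0.42 ± 0.14, adjusted p = 0.0758). They passed under 7 and 6 of 18 alternatives. In implanted PBS alone Btg2 was at 315 and 284 CPM in positive against 392 and 545 CPM in negative cells (-0.63, adjusted p = 0.0156). The differences of Ccnd3, Cdkn1b, Myc, Ccng1 and Mdm2 were 0.02, 0.07, 0.00, 0.01 and -0.09 on the log2 scale, none past the threshold. The 95% intervals of the largest of these, Mdm2 and Cdkn1b, were -0.34 to 0.16 and -0.13 to 0.27.

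Depth moved with this split, as given above. Summed lymphoid markers were higher in the positive cells of 7 of 8 libraries (0.738 to 53.4 CPM in positive cells, with at most 31.6 CPM in negative cells), the myeloid markers of 5, the fibroblast markers of 4, the lymphatic endothelial and mural markers of 3 each, and the epithelial tumour and endothelial markers of 0. Their part in the split's differences was not tested. With cells thinned to 2000 UMIs before the split, only 5 libraries kept 10 positive cells, and the differences were 0.41 for Ccnd1, -0.72 for Cdkn1a and -2.99 for Ccnd2, none past the threshold (adjusted p = 0.205, 0.188 and 0.146), while the median over all genes was -0.79. With cells holding exactly 1 UMI of Mki67 and Top2a together left out, they were 0.86, -1.02 and -1.06 in 6 libraries.

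Around the members, 10 of 19 other G1 and Rb pathway genes were higher in positive cells and 0 lower (Cks1b at 2.24, Tfdp1 at 1.17, Rbl1 at 0.80), as were the INK4 inhibitor genes Cdkn2c at 1.32 and Cdkn2d at 0.55, 2 of 4. Of 23 MYC network and target genes 12 were higher and 1 lower, led by Mxd3 at 3.18, Cad at 0.77 and Odc1 at 0.68, although Myc itself differed by 0.00. Of 18 immediate early genes 0 were higher and 14 lower, with Klf4 at -0.57, Zfp36 at -0.52 and Nr4a1 at -0.46. Of 29 other p53 targets 2 were higher and 5 lower, with Rrm2b at -0.64, Fas at -0.60 and Gadd45g at -0.45. In the BTG and TOB family 1 of 4, Btg1, was lower at -0.24. Of all 11150 genes tested 10.3% were called, 5.96% higher and 4.35% lower.

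The response to cGAMP was compared between positive and negative cells of each model by an interaction. With limma 0 of 10 members were called in spontaneous tumours (0.0538% of all genes) and 0 of 10 in implanted tumours (0.161%). An unadjusted p below 0.05 was reached by 3 and 2 members, beside 924 and 1002 of all 11150 genes. Limma-voom called 0 members in both. In spontaneous tumours the differences were largest for Cdkn1c (0.88 ± 0.40, 95% interval 0.03 to 1.73, adjusted p = 0.584), Cdkn1a (0.58 ± 0.25, adjusted p = 0.560) and Ccnd1 (0.44 ± 0.19, adjusted p = 0.560). In implanted tumours they were largest for Ccnd2 (1.53 ± 0.36, 95% interval 0.75 to 2.31, adjusted p = 0.134) and Btg2 (0.87 ± 0.20, adjusted p = 0.114). Those of Ccnd2 and Btg2 had unadjusted p of 0.000839 and 0.000545 and did not pass after adjustment over the 11150 genes. In positive cells of implanted tumours the lymphatic endothelial markers summed to 357 and 272 CPM after PBS and to 2897 and 4123 CPM after cGAMP, against 547 and 384 CPM and 1570 and 1546 CPM in negative cells. Their part in these differences was not tested.

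Over the 8 libraries the levels of Cdkn1a ran closest to those of Dusp1 (Pearson r = 0.969 of log2 levels), Foxf1 (0.949) and Mertk (0.918), those of Ccnd1 to Uxs1 (0.969), Prrt4 (0.968) and Cmah (0.968), and those of Btg2 to Clstn1 (0.976), Polk (0.969) and Per1 (0.968). Cdkn1c ran closest to 2610021A01Rik (0.977), Mdm2 to Gpr182 (0.970), Ccnd3 to Nup35 (0.937), Cdkn1b to Zfp111 (0.939), Ccng1 to Zbtb46 (0.935), Myc to Aar2 (0.933) and Ccnd2 to Gfod1 (0.924). These are descriptions, picked as the highest of 10424 genes over 8 libraries that share their groups and depths, and carry no test.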

How the data were processed

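Sorted CD31+ tumour ECs of 8 libraries, 2 in each of 4 groups taken from the labels, were analysed. The authors mapped reads with Cell Ranger 3.0.0 to mm10, handled them in Seurat 3.1.1, removed cells with few genes or many mitochondrial transcripts and genes seen in very few cells, and deposited, for each library, natural log values ln(1 + UMIs × 10000 / total UMIs of a cell). Dividing the linear values of a cell by the smallest gave whole UMI counts for 100% of values within a tolerance of 0.01. All columns belonged to a library, leaving 0 unused. Doublets were not called, and how the deposited cells were chosen was not settled.

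Levels were mean CPM over the Pecam1+, positive or negative cells of a library. Log2(mean CPM + 1) was fitted with limma 3.58.1 (limma-trend, R 4.3.3) as group means over 8 libraries, leaving out genes that reached 5 CPM in fewer than 2 libraries, with Benjamini-Hochberg adjustment over all genes fitted and a threshold of 0.05. Positive and negative cells were fitted together with the library as a block, without Mki67 and Top2a. Fits were tested on simulated data with absolute log2 changes of 1 and 2, of which 100% were called in the right direction. Of the unchanged genes 5 were called in the implanted response and 11 between positive and negative cells. The simulated counts had the same spread for all genes and none between cells, so these shares do not measure those of the real data. Smaller changes, such as those of the members called in Pecam1+ cells, were not simulated. All p values compare libraries, with 2 per group, and cells were not used as replicates. Replicate libraries correlated at r = 0.975 to 0.989 of log2 levels. Motifs were sought in RefSeq windows with Python 3.11.15.

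The alternatives were summed UMIs, median-of-ratios scaling, limma-voom, a pseudocount of 10 CPM, no filter, a replicate block, the 4 libraries of a comparison alone, thinning to 2000 UMIs, all deposited cells, cells without a UMI of 6 genes of other lineages, other splits, and each library left out. The 10 members and all gene lists were chosen with earlier results of these data known. From each other list up to 3 called genes were named, those with the largest absolute log2 difference among genes with at least 10 CPM on average, and for each member the genes of highest Pearson r. Single genes named for an alternative were picked after their values were seen.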

Additional observations from a re-analysis of the deposited data

Results flagged for a closer look

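The difference of the responses to cGAMP between positive and negative cells was itself tested for 11150 genes. It was called for 6 genes in spontaneous and 18 in implanted tumours. Of the 14 other cycle genes, which were not named singly, 1 was called lower in spontaneous and 2 in implanted tumours. Egr1, an immediate early gene and no member, was the 1 gene with values given here that was called. In implanted tumours its response was higher by 1.37 on the log2 scale in positive than in negative Pecam1+ cells (limma adjusted p = 0.0427). It was called under 5 of 18 alternatives, with values from 0.85 to 1.90 and adjusted p from 0.000414 to 0.648, the highest without replicate 2 of implanted PBS (0.85).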

How the results depend on the processing

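Depth, the number of libraries and other cell types limit these results: a median of 2014 UMIs in 1 library, 2 libraries per group and 29 to 203 positive cells per library. Of the single genes and shares, 3848 values kept their direction and side of the threshold or moved little, 462 lost and 79 gained a call, 78 moved and 3 reversed. Some alternatives entered fewer genes, cells or libraries, and the causes of the changes were not tested.

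Among Pecam1+ cells the genes called were 1322 in spontaneous tumours, 2609 in implanted tumours, 69 for the difference of the responses, 816 between models after PBS and 1434 after cGAMP. With summed UMIs they were 2839 in spontaneous tumours, 112 for the difference and 1317 after PBS. Median-of-ratios scaling gave 2220 in spontaneous tumours and 109 for the difference, and limma-voom 2578 in spontaneous tumours and 1347 after PBS. No filter gave 812, 0 for the difference, 327 after PBS and 784 after cGAMP. Thinning to 2000 UMIs gave 690 and 1265 in spontaneous and implanted tumours, and 374 and 610 between models, all deposited cells 43 for the difference, and leaving out cells with a UMI of another lineage 789, 1636, 438 and 781. With 1 library left out the counts ran from 448 to 1808, 1265 to 2495, 2 to 171, 212 to 1234 and 156 to 1447, the lowest without replicate 1 of spontaneous cGAMP, replicate 2 of implanted PBS, replicate 2 of spontaneous cGAMP, replicate 2 of spontaneous PBS and replicate 2 of spontaneous cGAMP.

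In negative cells the counts were 1063, 2251, 74, 703 and 1303 in the same order. Summed UMIs gave 2480 in spontaneous tumours, 1354 after PBS and 2027 after cGAMP, median-of-ratios scaling 1989 and 1186 in the first and second of these, and limma-voom 2275, 3447, 1198 after PBS and 2046 after cGAMP. A pseudocount of 10 CPM gave 42 for the difference, and no filter 647, 0 for the difference, 299 and 700. The 4 libraries alone gave 1479 in implanted tumours, thinning 666, 1163, 394 and 580, all deposited cells 24 for the difference, cells without another lineage 654, 1401, 431 and 748, and cells without other cycle genes 688, 31 for the difference and 460 after PBS. With 1 library left out they ran from 385 to 1491, 1130 to 2075, 2 to 165, 222 to 1057 and 129 to 1313.

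Between positive and negative cells 1150 genes were called, and 6 and 18 for the interactions in spontaneous and implanted tumours. Summed UMIs gave 1885 and median-of-ratios scaling 1852. Limma-voom gave 1973, 1 and 67, a pseudocount of 10 CPM 38 and 117 for the interactions, and no filter 624, 0 and 0. Thinning gave 326 for the implanted interaction and none could be fitted in spontaneous tumours, all deposited cells 0 for the implanted one, cells without another lineage 335, 1 and 0, leaving out cells with 1 UMI 2860 and 48 in spontaneous tumours, and cells without other cycle genes 13 and 29 for the interactions. With 1 library left out they ran from 584 to 1112, 1 to 40 and 0 to 32. Under thinning Rbl1 (-0.56), Cdkn2d (-0.53) and Cad (-1.42) reversed their difference between positive and negative cells in the 5 libraries left, without passing.

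The positive share was 10.8% and 5.94% in spontaneous tumours after PBS and cGAMP and 18.3% and 5.25% in implanted tumours. Thinning gave 4.30%, 1.08%, 8.04% and 1.34%, all deposited cells 17.8% in implanted PBS, and cells without another lineage 5.27%, 16.5% and 4.34% in the last 3 groups. With 1 library left out it ran from 9.98% to 11.6%, 5.52% to 6.35%, 18.1% to 18.5% and 4.80% to 5.69%.

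Between libraries with the same replicate number the r of deviations was -0.216 for the spontaneous groups, 0.125 for the implanted groups and -0.144 for the PBS groups. With 2 libraries per group the crossed pairs give the same values with the sign reversed. Whether the numbers pair libraries cannot be told from them. A replicate block gave 1230, 2524, 58, 741 and 1362 calls in Pecam1+ cells and 1047, 2218, 64, 676 and 1249 in negative cells. Among members it added Btg2 after PBS (adjusted p = 0.0192). With the numbers of spontaneous cGAMP crossed, an alternative added after seeing the data, the counts were 1221, 2565, 78, 789 and 1387, and 1014, 2212, 69, 668 and 1232. No replicate block was run for positive against negative cells, since each library is already a block there.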
